A study of Arabidopsis thaliana with 9 samples.

Results

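The genes described here encode proteins of the large, 60S, subunit of the cytosolic ribosome in Arabidopsis thaliana roots. Of 60 listed loci, the 43 with a probe set for that gene alone were measured, out of 16548 genes tested. They cover 21 of the 26 proteins on the list, 12 of them with 2 paralogues, 5 with 3 and 4 with 1. The 17 loci without such a probe set include every listed gene of L3, L5, L10, L11 and L24, so the complex that L5 and L11 form with 5S rRNA was not analysed here. The letters after the protein number (RPL34C, RPL14B) are the usual names of the Arabidopsis paralogues, and each locus is given where its gene is first described.

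The 60S subunit joins amino acids into protein. Its catalytic centre is made of rRNA, with proteins packed around it, and the new chain leaves through a tunnel whose wall and rim are partly protein. A pair of flexible stalks on its sides handle elongation factors and departing tRNA, and proteins of the outer surface brace the rRNA and face the small, 40S, subunit. In Arabidopsis each protein comes from a small family of paralogous genes. Their transcripts are abundant where cells grow and divide, as in the root tip. The place of each protein below is that known from yeast and mammalian ribosome structures.

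Whole roots of seedlings 10 days old were used, all of the Wassilewskija (WS) cultivar and all carrying pCaMV35S:14-3-3κ:GFP, a transgene in which the viral 35S promoter, active in most plant cells, drives a GFP-tagged 14-3-3 protein. No array of plants without the transgene was used, so every value below is from this line. The last-actuated tube flew on an F-104 jet and was fixed with RNAlater after about 1.5 min of level flight. The first-actuated tube flew beside it and was fixed straight after about 10 s of microgravity, which followed a climb at 4 g of roughly 30 s. The last-actuated tube went through the same climb and microgravity before its level flight. The ground tube was held on the ground and fixed while the jet flew. Each tube gave 3 replicate samples of its own seedlings, hybridised to 1-colour AraGene 1.0 ST arrays. Each condition was a single tube, so an effect of the tube cannot be told apart from one of the condition, and every p-value below rests on the variation among 3 samples of the same tube.

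All levels are log2 expression values as deposited, so a difference of 1 is a factor of 2, and a level belongs to its own probe set and cannot rank genes. A gene was called at a Benjamini-Hochberg adjusted p under 0.05 over all 16548 genes in limma, which fits all 9 arrays together. The mean levels of the 43 probe sets lay between 1.38 and 10.02, with a median of 5.59, against 2.15 for all genes. Only RPL12C, RPL13C and RPL29B lay below that median of all genes. The arrays of a tube correlated across genes at 0.984 to 0.989 in the last-actuated, 0.990 to 0.991 in the first-actuated and 0.976 to 0.984 in the ground tube. Ground replicate 2 stood apart from its tube in chloroplast-encoded ribosomal protein transcripts, so counts without it are given too. In whole roots, fewer cells that use a gene and less RNA per cell cannot be told apart. Paralogues of a ribosomal protein are close in sequence, and how far their probe sets share signal was not tested.

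The 60S transcripts were lowest in the roots fixed straight after microgravity. Each gene was set against its own mean over the 9 arrays, and the median of these deviations over the 43 genes was taken on each array. It was 0.011, 0.10 and 0.085 on the last-actuated arrays 1, 2 and 3, -0.16, -0.23 and -0.14 on the first-actuated arrays, and 0.22, 0.13 and 0.058 on the ground arrays. The first-actuated arrays lay below all 6 others, while those of the last-actuated and ground tubes overlapped. For all genes the same medians stayed between -0.028 and 0.0040. The first-actuated tube had the lowest of the 3 tube means for 35 of the 43 genes, against 34.4% of all genes, and the highest for 0 of them.

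**Figure D1:**
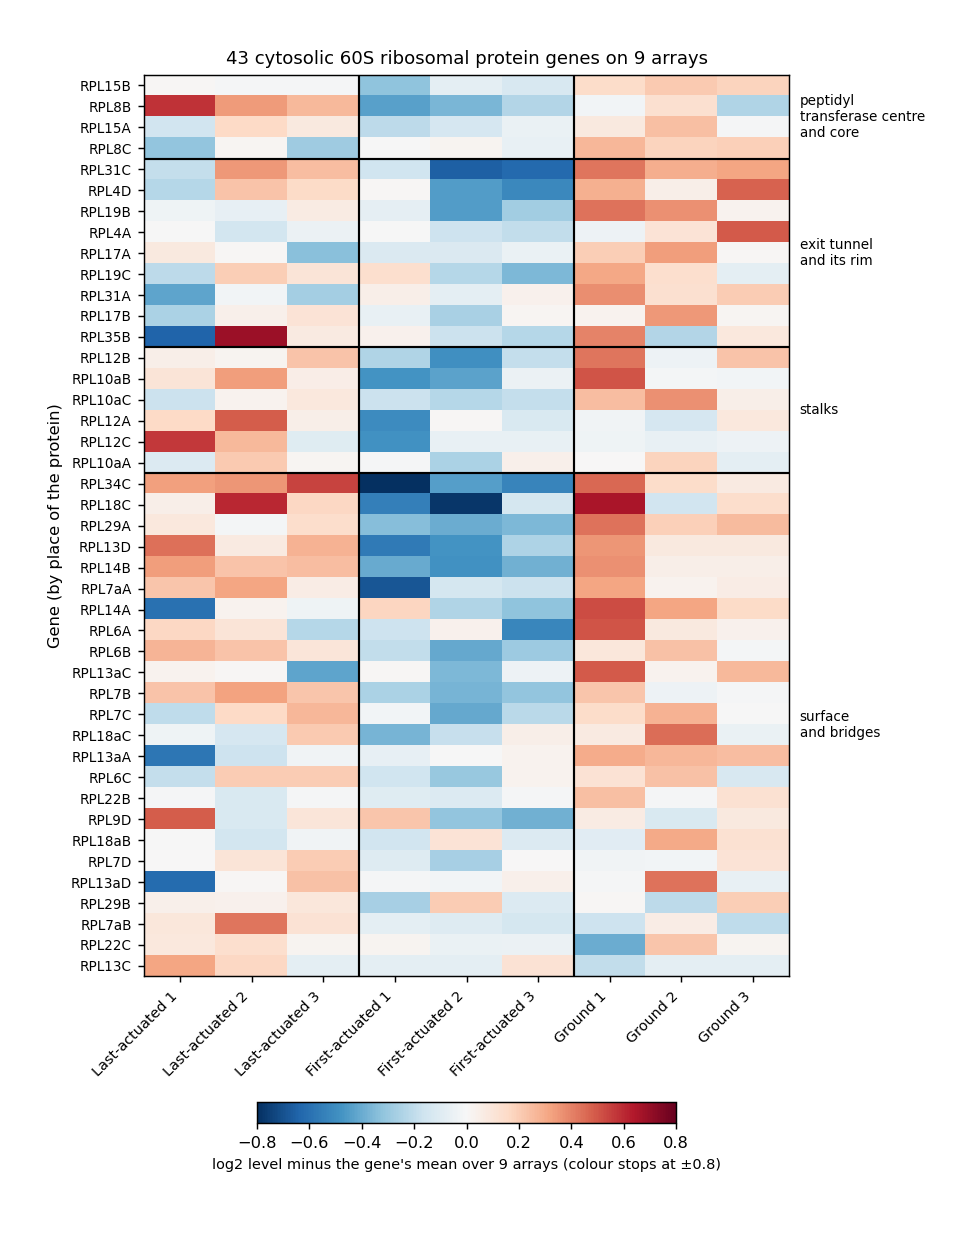
Heat map of the 43 genes (rows, grouped by the place of the protein and ordered by their first-actuated minus ground change) on the 9 arrays (columns: last-actuated, first-actuated, ground, 3 each). Colour is the log2 level minus the gene's mean over the 9 arrays, blue for lower and red for higher; most rows are blue in the 3 middle columns, where 35 of 43 genes have their lowest tube mean.

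The comparison of first-actuated with ground roots asks what had changed by the end of the parabola. Here 5 members fell and 0 rose: RPL34C, RPL31C, RPL29A, RPL13D and RPL14B. They are 11.6% of the members, beside 4.69% of all genes called, 1.67% lower and 3.02% higher. Among genes at or above the median level, where 40 members lie, 3.23% were called lower and 8.96% in either direction, against 12.5% of those 40. The log2 change was negative for 41 of 43 members (95.3%), against 47.5% of all genes and 51.2% of those at or above the median level, with a median of -0.30 against 0.0098. In 21 members every first-actuated array lay below every ground array, and in 0 above. All 21 are among the 40 at or above the median level (52.5%), where 14.5% of genes were lower without overlap and 13.8% higher. With first-actuated replicate 2 or 3 left out, 2 members were called instead of 5, and with first-actuated or ground replicate 1 left out, 3 were. Leaving out the third array of the ground or last-actuated tube gave 4 calls, and leaving out ground replicate 2 gave 6. A fit of these tubes alone, with no last-actuated array, gave 2.

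The comparison of last-actuated with first-actuated roots asks what differed after the return to level flight. It shares the first-actuated arrays with the comparison above, so the pair are not independent. Here 6 members were higher in the last-actuated roots and 0 lower: RPL34C, RPL8B, RPL13D, RPL14B, RPL7B and RPL6B. They are 14.0% of the members, beside 2.24% of all genes called, 0.985% higher and 1.26% lower, and 1.90% higher at or above the median level. The change was positive for 37 of 43 members (86.0%), against 52.6% of all genes, with a median of 0.22 against 0.011. In 16 members all last-actuated arrays lay above all first-actuated ones, and in 0 below. All 16 are among the 40 at or above the median level, where 13.2% of genes were higher without overlap and 14.9% lower. RPL8B, one of the 16 and of the 6 called, is among the 40 only through its last-actuated arrays. Leaving out any 1 first-actuated array, or the first last-actuated one, left 1 call (RPL34C) of the 6. With last-actuated replicate 2 or 3 left out there were 3 calls, and with ground replicate 3 left out 4.

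Between last-actuated and ground roots no member was called. The count was 0 by limma, against 0.912% of all genes, and 7 members had an unadjusted p under 0.05, against 12.4% of all genes. All 7 are among the 40 at or above the median level, where 1567 of 8274 genes had such a p. The changes were negative for 25 members and positive for 18, against 44.2% and 55.7% of all genes, with a median of -0.074 against 0.026. This median was 0.0071 without last-actuated replicate 1. The tubes did not overlap in 6 members that were lower and 2 that were higher, all among the 40 at or above the median level. There the shares of genes were 8.39% and 9.27% in that order. One of the 2 is RPL8B, which is among the 40 only through its last-actuated arrays. The moderated F test of limma asks whether the 3 tubes differ at all. It called 7 members (16.3%, with 4.45% of all genes): RPL34C, RPL14B, RPL29A, RPL8B, RPL7B, RPL13D and RPL31C. At or above the median level it called 17.5% of the 40 members and 8.59% of genes. Omitting an array gave 8 calls for ground replicate 2, 4 for ground replicate 3 or each last-actuated array, 2 for first-actuated replicate 1 and 1 for the other first-actuated arrays.

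**Figure D2:**
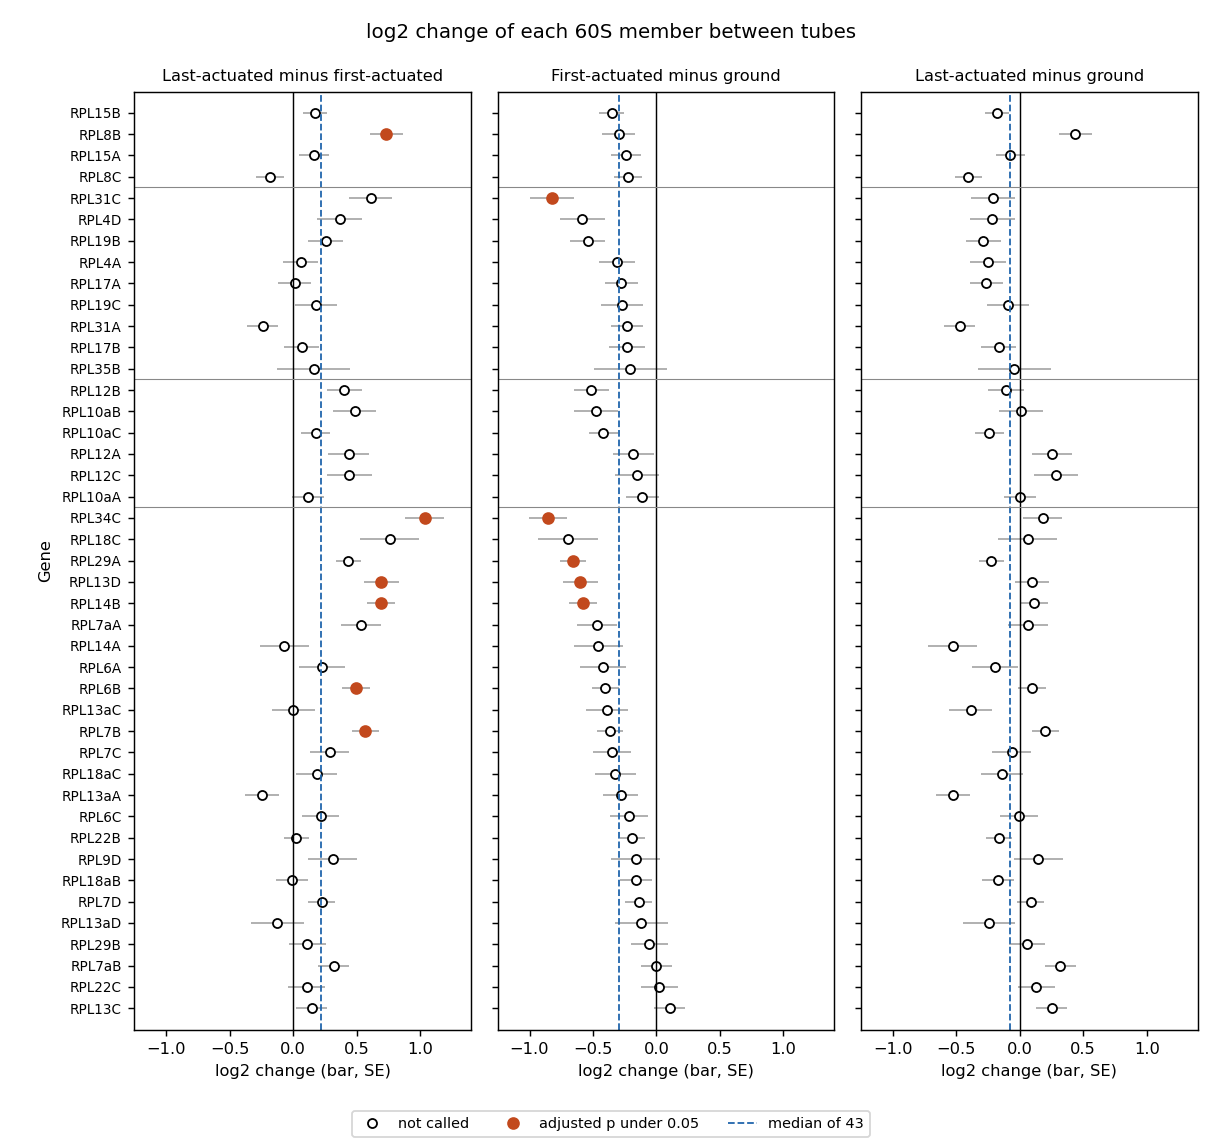
The log2 change of each gene (rows, in the order of the heat map) in the 3 comparisons, with bars for the SE from limma. Filled points passed an adjusted p of 0.05 and the dashed line is the median of the 43 genes, at 0.22 for last-actuated minus first-actuated, -0.30 for first-actuated minus ground and -0.074 for last-actuated minus ground.

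Proteins close to the catalytic centre were represented by L8 and L15. L8 reaches towards the peptidyl transferase centre and L15 is buried in the rRNA core. Their 4 genes were all lower in the first-actuated than in the ground roots, by 0.22 to 0.35 on the log2 scale, and none was called. RPL8B (AT3G51190) was called between the flight tubes. It had levels of 2.74, 2.50 and 2.42 on the last-actuated arrays, 1.73, 1.80 and 1.92 on the first-actuated arrays and 2.14, 2.29 and 1.92 on the ground arrays. The last-actuated arrays lay above all 6 others, and the first-actuated and ground arrays overlapped. RPL8B was higher in last-actuated than in first-actuated roots by 0.74 ± 0.13 (SE, limma, adjusted p = 0.0194, and 0.0110 to 0.0891 over the alternatives). Its first-actuated and ground means, 1.82 and 2.12, lie below the median of all genes, and no detection calls were available. RPL15A (AT4G16720) had means of 10.05 ± 0.16, 9.88 ± 0.080 and 10.12 ± 0.13 in the last-actuated, first-actuated and ground tubes (SD, n = 3 each), and was not called. It was singled out after its values were seen, as were RPL35B, RPL12B and RPL12C below.

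The exit tunnel and its rim were represented by 9 genes. L4 and L17 reach into the tunnel wall with extended loops, while L19, L31 and L35 surround its mouth, where factors that handle new chains dock. All 9 had negative changes from ground in both flight tubes, by 0.21 to 0.82 in the first-actuated and by 0.044 to 0.47 in the last-actuated roots. Of these RPL31C (AT5G56710) alone was called, in the first-actuated tube. Its levels were 6.10, 6.64 and 6.53 on the last-actuated arrays, 6.13, 5.64 and 5.67 on the first-actuated arrays and 6.72, 6.58 and 6.60 on the ground arrays. The ground arrays sat close together above every first-actuated array, whereas the last-actuated arrays, at 6.10 to 6.64, overlapped both. RPL31C fell by 0.82 ± 0.17 in first-actuated roots, to 0.566 of the ground level (limma, adjusted p = 0.0239). The call was lost on leaving out replicate 1 or 3 of the ground tube or 2 or 3 of the first-actuated tube, and with the replicate block (adjusted p = 0.0123 to 0.109 over the alternatives). RPL35B (AT2G39390) had the widest spread of the 43 within a tube, with 2.04, 3.37 and 2.76 on the last-actuated arrays, a range that covered all first-actuated values (2.45 to 2.72) and all ground values (2.45 to 3.08).

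The stalks were represented by L10a, which carries the stalk beside the exit site for tRNA, and L12, which sits at the base of the stalk that recruits elongation factors. All 6 genes had negative first-actuated minus ground changes, of -0.51 to -0.11, and all 6 had positive last-actuated minus first-actuated changes, of 0.11 to 0.48. None was called in either comparison. RPL12B (AT3G53430) was nearest, with levels of 6.82 to 7.02 on the last-actuated, 6.30 to 6.61 on the first-actuated and 6.75 to 7.22 on the ground arrays (first-actuated minus ground -0.51, limma, adjusted p = 0.0745). Its first-actuated arrays lay below all others. RPL12C (AT5G60670) had exactly the same value on 3 arrays, and its first-actuated minus ground change was -0.16.

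Proteins of the outer surface, including the side that faces the 40S subunit, made up 24 of the 43 genes. Against ground 4 of these 24 (16.7%) were called lower in the first-actuated roots, beside 1.67% of all genes and 3.23% of those at or above the median level. Called lower elsewhere were 1 of the 9 tunnel genes, 0 of the 4 near the catalytic centre and 0 of the 6 stalk genes. Whether the places differ was not tested. RPL34C (AT3G28900) encodes L34, a small protein of the surface, and had the largest change in both comparisons with calls. Its levels were 5.29, 5.32 and 5.50 on the last-actuated arrays, 4.05, 4.52 and 4.44 on the first-actuated arrays and 5.42, 5.12 and 5.04 on the ground arrays. All first-actuated arrays were low and the other tubes overlapped. RPL34C fell by 0.86 ± 0.15 in the first-actuated roots relative to ground, to 0.553 of the level (limma, adjusted p = 0.0109). It was 2.05-fold higher in last-actuated than in first-actuated roots (log2 1.04 ± 0.15, limma, adjusted p = 0.00911). That call between the flight tubes held in all 20 alternatives (adjusted p = 0.00438 to 0.0441). The call against ground held without each array in turn and was lost when the last-actuated arrays left the fit (adjusted p = 0.0543). Between last-actuated and ground roots the difference was 0.18 ± 0.15 (adjusted p = 0.695).

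RPL14B (AT4G27090) encodes L14, a surface protein. It had 8.06, 7.95 and 7.98 on the last-actuated arrays, 7.32, 7.25 and 7.35 on the first-actuated arrays and 8.10, 7.78 and 7.78 on the ground arrays. The first-actuated arrays lay within 0.10 of one another and below all the rest. RPL14B fell by 0.58 ± 0.11 in first-actuated roots (limma, adjusted p = 0.0167) and was 0.69 ± 0.11 higher in last-actuated than in first-actuated roots (adjusted p = 0.0133). The call against ground was lost without any 1 first-actuated array and in the fit of the compared tubes alone, and the call between the flight tubes without any of these or last-actuated replicate 1.

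RPL29A (AT3G06700) encodes L29, a very small basic protein. Its levels were 6.38, 6.28 and 6.44 on the last-actuated arrays, 5.96, 5.90 and 5.94 on the first-actuated arrays and 6.73, 6.49 and 6.55 on the ground arrays. The tubes did not overlap at all, with the first-actuated arrays lowest, the last-actuated between and the ground arrays highest. RPL29A fell by 0.66 ± 0.10 in the first-actuated roots (limma, adjusted p = 0.00490), a call that held in all 20 alternatives (adjusted p = 0.00333 to 0.0274). Its last-actuated minus first-actuated change of 0.43 ± 0.10 just missed the threshold (adjusted p = 0.0603), and its last-actuated minus ground change was -0.22 ± 0.10 (adjusted p = 0.405).

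The remaining called genes of the surface were RPL13D, RPL7B and RPL6B. RPL13D (AT5G23900), for L13, averaged 6.39 ± 0.18 in the last-actuated, 5.69 ± 0.17 in the first-actuated and 6.29 ± 0.16 in the ground tube (SD, n = 3 each). It fell by 0.60 from ground in the first-actuated tube (limma, adjusted p = 0.0355) and was 0.70 higher in the last-actuated than in the first-actuated tube (adjusted p = 0.0299), and each call was lost in 6 of the 9 fits that left out 1 array. RPL7B (AT2G01250), for L7, averaged 7.38 ± 0.058 in last-actuated, 6.81 ± 0.062 in first-actuated and 7.18 ± 0.14 in ground roots. It was 0.57 higher in last-actuated than in first-actuated roots (limma, adjusted p = 0.0227), a call lost without any 1 array of either flight tube. RPL6B (AT1G74060), for L6, averaged 7.58 ± 0.090, 7.09 ± 0.10 and 7.49 ± 0.13 in the same order. It was 0.50 higher in last-actuated than in first-actuated roots (adjusted p = 0.0478, 0.0289 to 0.168 over the alternatives), and only 1 of the 9 fits without an array kept that call. In all, 6 members, RPL7B and RPL6B among them, had a first-actuated minus ground adjusted p between 0.05 and 0.1.

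**Figure D3:**
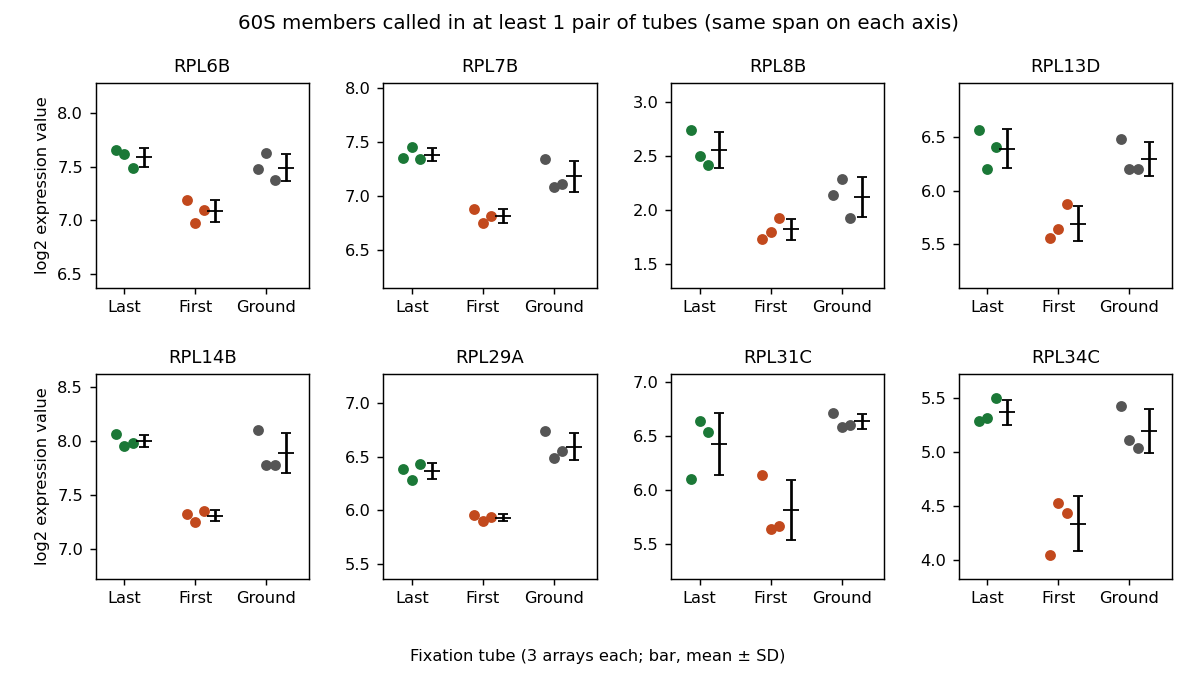
Levels on every array of the 8 genes called in at least 1 pair of tubes, with tubes on the horizontal axis (last-actuated, first-actuated, ground), the log2 expression value on the vertical axis and a bar for the mean ± SD. The vertical span is the same in each panel. RPL34C, at 4.05 to 4.52 on the first-actuated arrays, shows the widest gap between the flight tubes (log2 1.04).

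Not all members followed the group. RPL13C (AT3G48960) and RPL22C (AT5G27770) had positive changes from ground in both flight tubes, of 0.25 in last-actuated and 0.11 in first-actuated roots for RPL13C, and of 0.13 and 0.022 in that order for RPL22C. Neither was called and the tubes overlapped. The sign for RPL22C was not stable, with ground arrays at 3.95, 4.57 and 4.36. Over the alternatives its changes ranged from -0.043 to 0.27 in last-actuated and from -0.15 to 0.16 in first-actuated roots. RPL13C had the same value on 5 of its 9 arrays and a mean below the median of all genes. Another 6 members had their lowest tube mean in the last-actuated roots: RPL8C, RPL13aA, RPL13aD, RPL14A, RPL31A and RPL18aB. In RPL13aD (AT5G48760) last-actuated replicate 1 was low, at 5.22 against 5.84 and 6.07 on the other arrays of its tube. In RPL14A (AT2G20450) it was 4.68, against 5.31 and 5.24, so both rest on that array. For RPL18aB (AT2G34480) the flight tubes were nearly equal, with a last-actuated minus first-actuated change of -0.0080 ± 0.13. In RPL13aA (AT3G07110), for the surface protein L13a, the levels were 7.27, 7.68 and 7.82 on the last-actuated arrays, 7.78, 7.85 and 7.88 on the first-actuated arrays and 8.15, 8.11 and 8.10 on the ground arrays. Every flight array was below every ground array, and the last-actuated minus ground change was -0.53 ± 0.14 (limma, adjusted p = 0.130). These 6 were singled out after their values were seen.

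When the paralogues of a protein were averaged, the direction was shared by all proteins in 1 comparison. The mean first-actuated minus ground change was negative for 21 of 21 proteins, from -0.86 (L34, 1 gene) to -0.083 (L22, 2 genes). The mean last-actuated minus first-actuated change was positive for 20 of 21, from 1.04 (L34) to 0.039 (L17) among these, and was -0.12 for L13a. Against ground, last-actuated roots had 13 proteins lower and 8 higher, from -0.39 (L13a) to 0.19 (L7a). These averages are descriptions and have no test.

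Paralogues of opposite sign in first-actuated minus ground change occurred in L13 and L22. In L22 the positive change, 0.022 ± 0.14 for RPL22C, changed sign among the alternatives. The largest difference in first-actuated minus ground change was in L13, where RPL13D had -0.60 and RPL13C 0.11. It was followed by L29, with -0.66 for RPL29A and -0.056 for RPL29B, and by L31, with -0.82 for RPL31C and -0.23 for RPL31A. In the L13 and L29 pairs the gene with the small change lies below the median level of all genes. RPL31A, at a mean of 5.03 in first-actuated and 5.26 in ground roots, does not. These 3 families were picked for the size of the difference, which is a description with no test. The smallest differences were in L17, with -0.28 for RPL17A and -0.23 for RPL17B, and in L8, with -0.30 for RPL8B and -0.22 for RPL8C.

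Wide gaps between paralogues in the last-actuated minus first-actuated change were seen in L8, L31 and L14. RPL8B was 0.74 higher in last-actuated than in first-actuated roots, and RPL8C had a change of -0.18, a gap of 0.92. RPL31C had 0.61 and RPL31A -0.24, a gap of 0.85. RPL14B had 0.69 and RPL14A -0.071, a gap of 0.76. These 3 families were chosen for their gaps after the values were seen, so the gaps are a description with no test, and none of RPL8C, RPL31A and RPL14A was called. RPL14A rests partly on 1 array, with 4.68 on last-actuated replicate 1 and 5.31 and 5.24 on the other two.

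**Figure D4:**
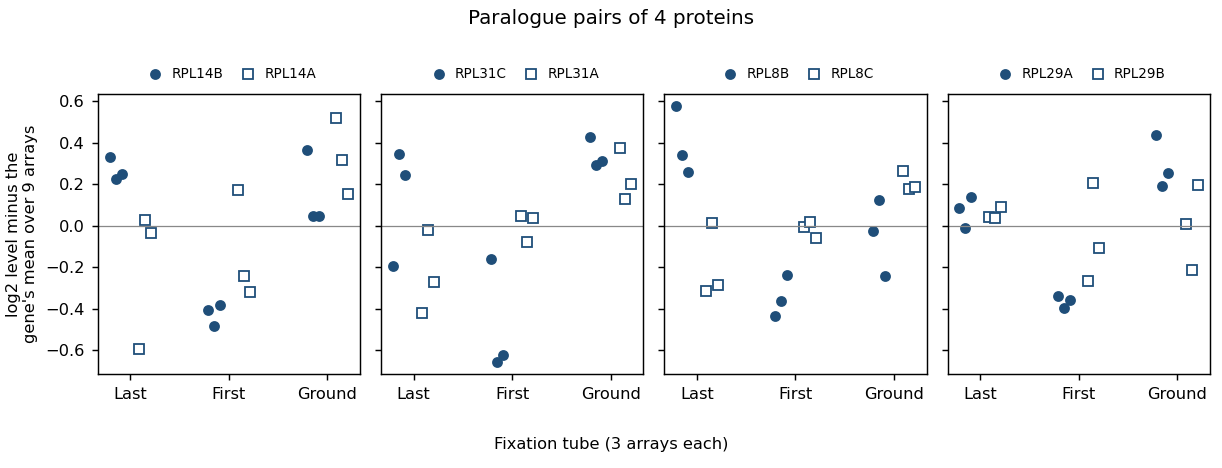
Paralogue pairs of L14, L31, L8 and L29 on the 9 arrays, with tubes on the horizontal axis and the log2 level minus the gene's own mean over the 9 arrays on the vertical axis. Filled circles are RPL14B, RPL31C, RPL8B and RPL29A, and open squares RPL14A, RPL31A, RPL8C and RPL29B. RPL8B lies above its own mean on all 3 last-actuated arrays and RPL8C below its own on 2 of the 3; their changes from the first-actuated tube are 0.74 and -0.18.

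The spread between replicates of a member was similar to that of other genes, with median SDs of 0.18 in the last-actuated, 0.14 in the first-actuated and 0.17 in the ground tube, against 0.16, 0.13 and 0.20 for genes at or above the median level.

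Other parts of the translation machinery were read from lists of loci. Of 58 other 60S loci 35 were measured, and 8 were called lower in first-actuated against ground roots (22.9%). This stands beside 1.67% of all genes and 3.23% of those at or above the median level. Among the 8 were AT3G09500 (-0.52, limma, adjusted p = 0.0162) and AT1G26880 (-0.70, 0.0172). The median change of the 35 was -0.30, and the count of calls ranged from 1 to 8 over the fits without 1 array. Of 97 loci of the 40S subunit 60 were measured, with 3 lower, 0 higher and a median of -0.25. These 3 of 60 stand beside 1.67% of all genes called lower and 3.23% of those at or above the median level. This count of calls alone does not set the 40S genes apart. AT4G34670 (-0.53, adjusted p = 0.0288) and AT5G20290 (-0.43, 0.0354) were among the 3. The count was 0 without any 1 first-actuated array or without ground replicate 1 or 3, and 10 without ground replicate 2. The 14 genes of the acidic stalk proteins had a median of -0.29 and 0 calls by limma. Of these, 8 had an unadjusted p under 0.05, beside 16.9% of all genes. At or above the median level 2288 of 8274 genes had such a p. All 9 measured of 27 ribosome assembly factor genes had negative changes with 0 calls by limma, 3 of them at an unadjusted p under 0.05. Leaving out ground replicate 2 gave 3 lower calls in each of these lists, and the other fits without 1 array gave 0.

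Between the flight tubes these lists held genes that were higher in the last-actuated roots. The share called higher was 0.985% of all genes and 1.90% of those at or above the median level. Among the other 60S genes 6 of 35 were higher, with a median change of 0.32, among them AT3G09500 (0.63, limma, adjusted p = 0.0127) and AT4G26230 (0.87, 0.0240). Among the 40S genes 4 of 60 were higher, with a median of 0.21, led by AT4G34670 (0.99, 0.00370) and AT5G28060 (0.81, 0.0109). In the list of acidic stalk proteins (median 0.20) 1 gene, AT5G47700 (0.63, 0.0426), was higher, and in that of assembly factors (median 0.040) 1 gene, AT1G52930 (0.71, 0.0421). A single call says little of either list. The counts ranged over the fits without 1 array from 0 to 7 for the other 60S genes, 1 to 5 for the 40S genes and 0 to 1 for each of the other two lists. In last-actuated against ground roots these lists had 0 calls by limma. In the same order, 5, 6, 1 and 3 members had an unadjusted p under 0.05, beside 12.4% of all genes. At or above the median level 1567 of 8274 genes had such a p. Without ground replicate 2 there was 1 lower call, among the 40S genes.

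**Figure D5:**
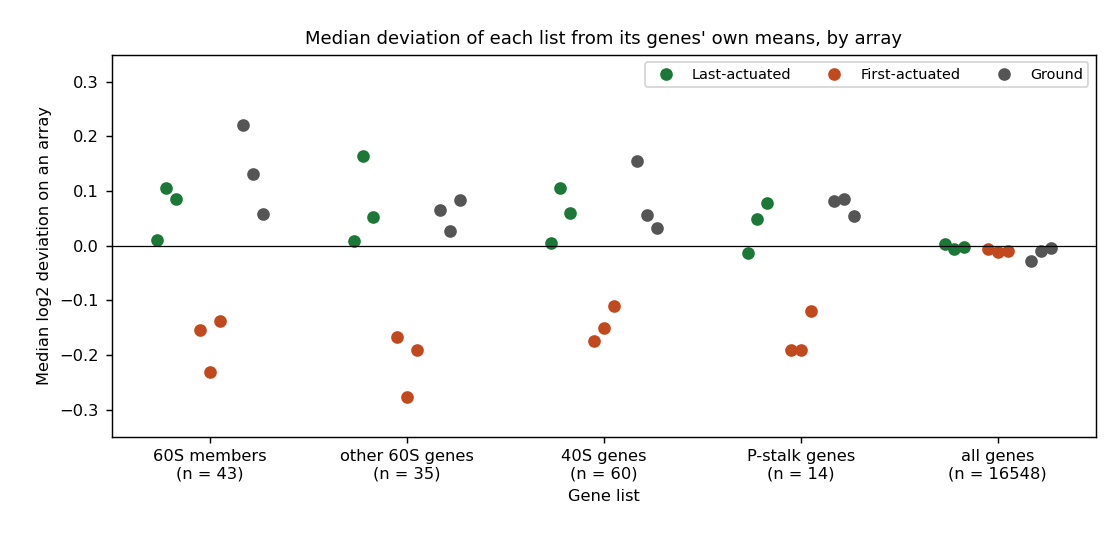
Median log2 deviation of each gene list from its genes' own means on every array (points; 3 per tube in the order last-actuated, first-actuated, ground). For the 43 members the first-actuated arrays lie at -0.23 to -0.14 and the others at 0.011 to 0.22, while all 16548 genes stay between -0.028 and 0.0040.

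A gene of the list of elongation and TOR factors went the other way. AT5G12110 rose to 8.88 ± 0.20 in first-actuated roots, against 7.44 ± 0.17 in ground roots (SD, n = 3 each; log2 change 1.44, limma, adjusted p = 2.12e-04). It was also higher in last-actuated roots, at 8.28 ± 0.046, than in ground roots (0.84, limma, adjusted p = 0.0173), and lower there than in first-actuated roots (log2 change -0.60, adjusted p = 0.0465). The call against ground in last-actuated roots was lost without ground replicate 1 or 3 or any last-actuated array, and that between the flight tubes in 7 of the 9 fits without 1 array. The list kept a count of 1 call against ground in first-actuated roots in all 9. AT5G12110 was the only call among the 6 measured of the 15 listed genes. The 13 measured ribosomal protein genes of the chloroplast genome all had negative changes from ground in both flight tubes. Their medians were -1.14 in last-actuated and -1.15 in first-actuated roots. In last-actuated roots 2 of the 13 (15.4%) were called, beside 0.912% of all genes and 1.80% of those at or above the median level. In first-actuated roots 1 (7.69%) was called, beside 4.69% and 8.96%. The array medians of these 13 genes were -0.30, -0.45 and -0.50 in the last-actuated, -0.39, -0.24 and -0.31 in the first-actuated, and 1.28, -0.084 and 0.98 in the ground tube. Ground replicate 2 lay far below its tube's other arrays, and the last-actuated and first-actuated arrays overlapped.

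Markers of tissue and cell state were few. Of 18 root marker genes 3 were measured. PYK10, abundant in root cells, stood at 11.15 ± 0.060 in the last-actuated, 11.31 ± 0.038 in the first-actuated and 11.55 ± 0.17 in the ground tube. EXPA7 and EXPA18, expansin genes of root hair cells, were the others. EXPA18 was 0.96 higher in first-actuated than in ground roots (limma, adjusted p = 0.0203) and 0.90 lower in last-actuated than in first-actuated roots (log2 change -0.90, adjusted p = 0.0454). EXPA7 was not called, with a first-actuated minus ground change of -0.63 (limma, adjusted p = 0.0685). Of 15 shoot genes RCA and LHCB4.1 were measured, and neither was called, with first-actuated minus ground changes of 0.036 and -0.057. Of 13 genes of dividing cells only PRL, an MCM helicase subunit, was measured, at 3.75 ± 0.074, 3.78 ± 0.11 and 3.93 ± 0.25 in the last-actuated, first-actuated and ground tubes. The part of cell type or division in the 60S result was not tested. The 3 measured reference genes had first-actuated minus ground changes of -0.0045 to 0.13, with 0 calls by limma and 0 at an unadjusted p under 0.05.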

How the data were processed

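The deposited values are log2 expression values from 1-colour arrays, made by the authors with RMA (background correction, quantile normalization and summary by probe set), per the submitters' processing notes. These also list the packages oligo and limma, R 4.0.0 and TAIR10, without further settings. A probe set was named from the platform's gene table, and 16722 of 38408 probe sets carried 1 gene, 759 several and 20927 were not listed. For a gene with several, the one with the highest mean was kept, giving 16548 genes. The 43 members are the listed loci among them. A 3-group linear model was fitted with limma 3.58.1 in R 4.3.3 (eBayes without trend; degrees of freedom were 6 residual and 3.89 prior), with Benjamini-Hochberg adjustment over all 16548 genes, and was tested on simulated data. Figures used Python 3.11.15 and matplotlib 3.10.9.

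The members and all gene lists were chosen with earlier results of these data known, and the list of other 60S genes was written after the values could be read. Named members are those called in any comparison, those with positive changes in both flight tubes and the paralogue families with the largest and smallest differences. From other lists at most 2 called genes with the smallest p are named. Others are said to be chosen after their values were seen. Promoter motifs and protein sequences were not analysed here. Array signals carry no count of molecules, and precision is limited by having 3 arrays a tube.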

Additional observations from a re-analysis of the deposited data

Results flagged for a closer look

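Last-actuated and first-actuated roots, each set against the same ground roots, differed in 6 members by a direct test of the difference between the flight tubes (limma, Benjamini-Hochberg adjusted p under 0.05). The last-actuated minus first-actuated log2 changes were 1.04 for RPL34C, 0.74 for RPL8B, 0.70 for RPL13D, 0.69 for RPL14B, 0.57 for RPL7B and 0.50 for RPL6B. Of the 9 fits without 1 array, the call was kept in all 9 for RPL34C, in 5 for RPL14B, 4 for RPL8B, 3 each for RPL13D and RPL7B, and 1 for RPL6B.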

How the results depend on the processing

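Counts of members called moved more than their directions. Against ground, the first-actuated count of 5 was 2 with only the groups compared in the fit, 1 at an adjusted p under 0.01 and 11 at 0.1, and 2 to 6 without 1 array, where the median change of -0.30 ranged from -0.36 to -0.27. Between the flight tubes the count of 6 was 1 at an adjusted p under 0.01 and 1 to 6 without 1 array, with medians of 0.18 to 0.27. The F test's count of 7 was 4 with all probe sets tested, 1 at an adjusted p under 0.01 and 1 to 8 without 1 array. Last-actuated against ground stayed at 0 calls by limma in every alternative run, with medians of -0.11 to 0.0071 without 1 array and -0.0093 with array weights. The main fit did not pair arrays by replicate number. Deviations from the tube means correlated at -0.11 to 0.070 between same-numbered arrays (9 pairs) and at -0.11 to 0.14 between others (18 pairs). With so few arrays this cannot exclude a weak pairing. With the replicate block the counts were 3 first-actuated against ground, 5 between the flight tubes, 4 in the F test and 0 last-actuated against ground. No result reversed its direction in a call. Quantile normalization, cyclic loess, trend, robust moderation, level filters and the mean over probe sets kept every count of members within 1.5 times. Another threshold changes the count by construction. Without 1 array the counts went down or up depending on which array was left out. Why they moved there and in the other settings was not tested. With 3 arrays a tube and no detection calls, changes of dim members (RPL12C, RPL13C, RPL29B) are uncertain. So are those of RPL8B, whose first-actuated and ground means lie below the median of all genes. The largest SE among the members was that of RPL35B, at 0.29.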

Other observations

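RPL9B, one of the listed loci without a probe set of its own, shares 2 probe sets with PGY2, another L9 gene. The first stood at 4.66 ± 0.32 in the last-actuated, 4.31 ± 0.43 in the first-actuated and 4.86 ± 0.21 in the ground tube (SD, n = 3 each), and the second at 6.12 ± 0.16, 6.39 ± 0.046 and 6.42 ± 0.10 in the same order. Their first-actuated minus ground differences were -0.55 and -0.028, and their last-actuated minus first-actuated differences 0.36 and -0.27. So probe sets for the same gene pair ran in opposite directions between the flight tubes. They were not tested.

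Values identical on several arrays occurred in 12 of the 43 members and in 61.4% of all genes. RPL13C had 5 equal values of 9, RPL22B 4, and RPL12C and RPL22C 3 each.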
